A study of Mus musculus with 12 samples.

Results

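The genotype difference averaged over both ages was described for autosomal genes of the mouse retina, and within it the genes that moved in the same direction at 1 month and at 6 months. A gene belonged to the set when the mean of the 5xFAD groups differed from the mean of the WT groups in a single fit of 4 groups (edgeR quasi-likelihood test, Benjamini-Hochberg adjusted p below 0.05) and its difference had the same sign at each age. Of 15644 autosomal genes with enough counts to test, among 16233 tested genes and 55487 genes in the deposited table, 92 (0.588%) were called in the average, 51 higher (0.326%) and 41 lower (0.262%) in 5xFAD, and 61 (0.39%) had the same direction at both ages. The 61 genes comprised 26 that were higher (0.166%) and 35 that were lower (0.224%) in 5xFAD, and the other 31 called genes (0.198%) had opposite directions. Of the 61, 53 are annotated as protein coding and 8 as pseudogenes, a class that makes up 2.94% of tested genes. RNA of the whole retina was measured in 12 libraries, 3 for each of 4 groups. WT mice at 1 and at 6 months of age are labelled with the strain C57BL/6J. The 5xFAD mice of the same ages are labelled with the strain Tg6799, a transgenic line, and the labels do not give the inbred background of that line. Genotype and any difference in genetic background therefore cannot be told apart, and because no label ties each library to its own animal or says whether retinas were pooled, p-values measure the spread between libraries, which may be technical.

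As background, 5xFAD mice carry human transgenes with familial Alzheimer disease mutations, driven by the Thy1 promoter, which is active in neurons. In the retina that promoter is best known from ganglion cells, whose axons form the optic nerve. Most retinal RNA comes from rod photoreceptors, which turn light into an electrical signal. A difference that a transgenic line carries from birth, such as an allele of another inbred strain or a gene disrupted by an insertion, is commonly looked for as a change that keeps its direction at every age and that lies near other changed genes on a chromosome. Inbred mouse strains also differ in the number and sequence of near-identical gene copies, and short reads from such copies cannot always be assigned to 1 of them.

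The libraries themselves set limits on every value. Deposited totals ran from 10928031 to 19552537 expected counts. Rod, cone, bipolar, amacrine, horizontal, ganglion and Müller cell markers were all detected in every group. The mean length of the transcripts behind a count ran from 3579 to 3790 nt in WT at 1 month, 4195 to 4227 nt in 5xFAD at 1 month, 3699.7 to 4019 nt in WT at 6 months and 3632 to 3729.8 nt in 5xFAD at 6 months. Over 11958 genes with at least 5 CPM (counts scaled to a common library size), the log2 levels of 5xFAD at 1 month correlated more closely with WT at 6 months (mean Pearson r 0.966 over 9 library pairs) than with WT at 1 month (0.949) or 5xFAD at 6 months (0.942). WT at 1 month was closer to 5xFAD at 6 months (0.964) than to 5xFAD at 1 month. The groups that resembled each other thus shared neither genotype nor age. The part of this arrangement in the results below was not tested. No value here checks the genotype labels, since human transgene RNA was not analysed, so every direction below is that between the libraries as labelled.

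Few genes differed between the genotypes in the same way at both ages. At 1 month 3049 genes (19.5% of those tested) were called, 10.6% higher and 8.85% lower in 5xFAD, and at 6 months 987 (6.31%), 2.45% higher and 3.86% lower. In all, 635 (4.06%) were called at both ages. Of these 635, 631 (4.03% of tested genes) had opposite directions, 445 (2.84%) higher in 5xFAD at 1 month and lower at 6 months and 186 (1.19%) the reverse, while 4 (0.0256%) had the same direction. The interaction of genotype and age was called for 3897 genes (24.9%). Whatever the p-value, 32.2% of genes had the same sign at both ages, and across genes the log2 differences at the 2 ages had a Pearson correlation of -0.29, or -0.52 over the 10091 genes with at least 10 CPM. These correlations are across genes, which are not independent replicates. The 2 ages share no library, though all libraries were scaled and fitted together. At an unadjusted p below 0.05 at each age, 56 genes (0.358%) shared a direction and 1865 (11.9%) did not.

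**Figure D1:**
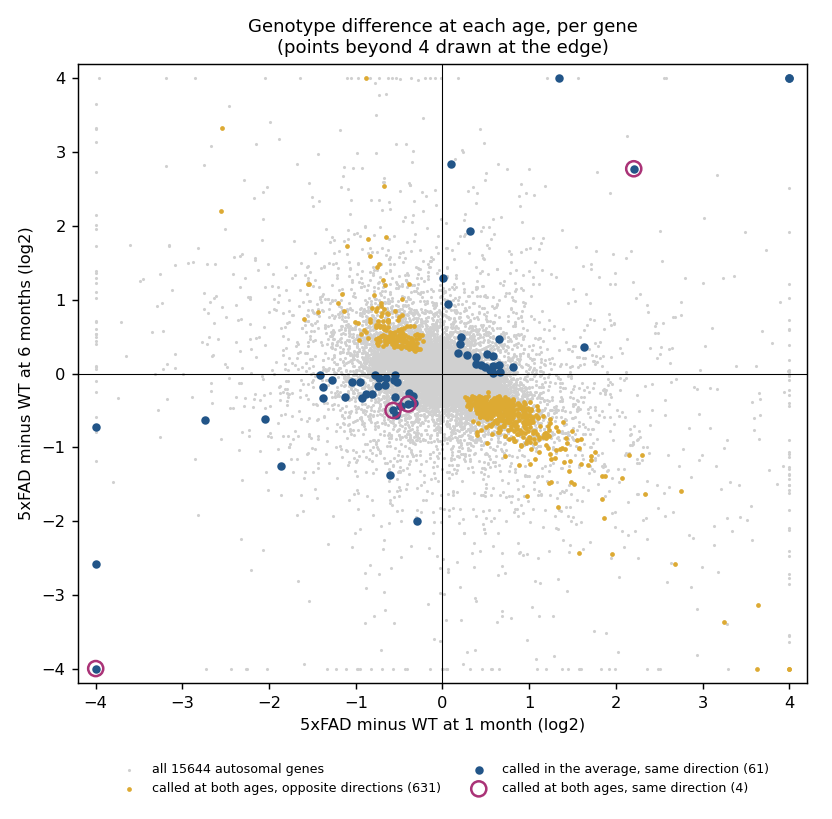
Log2 difference of 5xFAD from WT at 1 month (x axis) and at 6 months (y axis) for all 15644 autosomal genes tested, with the 631 genes called at both ages in opposite directions in ochre, the 61 genes called in the average with the same direction in blue and the 4 called at both ages in the same direction ringed; 160 genes beyond 4 on either axis are drawn at the edge. The ochre points fill the upper left and lower right, and the blue points lie in the other quadrants, many close to an axis.

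Within the 61 genes the difference was rarely of the same size at both ages. The median absolute log2 difference was 0.60 at 1 month and 0.31 at 6 months, and 46 genes had the larger difference at 1 month and 15 at 6 months. The single-age tests called 46 at 1 month only, 11 at 6 months only and 4 at both. An unadjusted p below 0.05 at both ages was found for 24, and the smaller of the 2 differences was under 0.1 on the log2 scale for 15 and under 0.2 for 27. The interaction was called for 30 of the 61 (49.2%). The 3 libraries of 5xFAD at 1 month lay outside the range of the other 9 for 32 genes, and those of WT at 6 months did so for 18. Genotypes did not overlap at 1 month for 53 members and at 6 months for 30 (37.5% and 24.1% of all tested genes). They overlapped at neither age for 22 genes, and all 6 libraries of each genotype were separated for 10, which were Col6a1, Col6a2, Col6a6, Mindy4b-ps, Pcgf2, Odf2, Dtx3, Gnb1, Nt5e and Ccser1. Over all tested genes those shares were 0.857% and 0.256%, and nothing is read from the difference, because the same values chose the members. Next to the threshold, Mrpl23 and Hcfc1r1 lay inside with an adjusted p of 0.0498, and Atp6v1d and Gmppa lay outside with 0.0524.

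**Figure D2:**
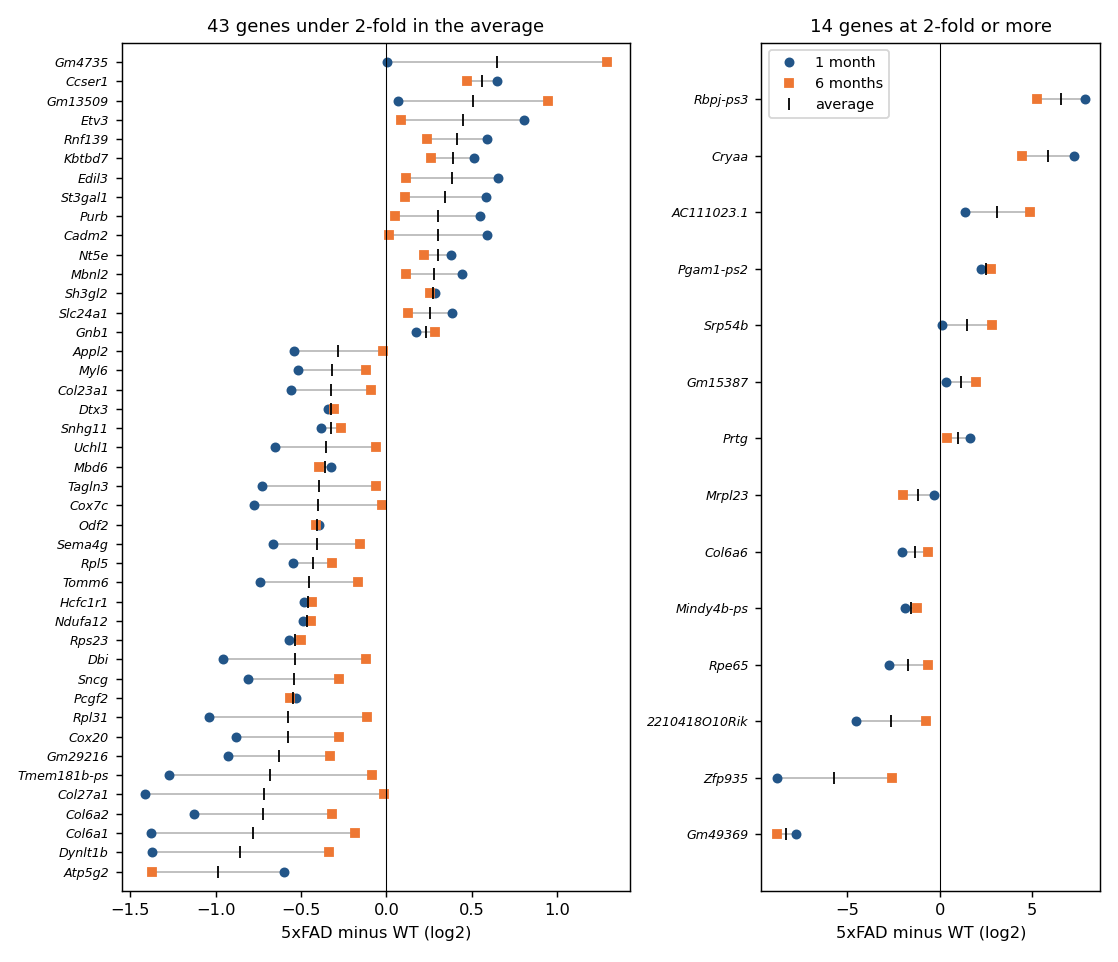
Log2 difference of 5xFAD from WT (x axis) at 1 month (circles), at 6 months (squares) and in the average (ticks) for 57 of the 61 genes, 43 under 2-fold in the average on the left and 14 at 2-fold or more on the right, on separate scales. The symbols of Odf2, Rps23, Pcgf2, Ndufa12, Hcfc1r1, Dtx3, Mbd6 and Sh3gl2 nearly coincide.

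Odf2 was lower in 5xFAD at both ages, with differences of like size. The gene (chr2:29889221-29931746, plus strand) encodes outer dense fibre protein 2, which in cells with cilia is a part of the appendages of the mother centriole, and photoreceptor outer segments are modified cilia. Odf2 read 88.8, 84.7 and 93.6 CPM in the WT libraries against 66.3, 70.8 and 65.9 CPM in 5xFAD at 1 month, and 98.2, 81.9 and 76.4 against 64.1, 64.4 and 64.1 CPM at 6 months. All 6 libraries of 5xFAD lay below all 6 of WT. The log2 difference was -0.40 ± 0.11 at 1 month (adjusted p 0.0106), -0.41 ± 0.11 at 6 months (0.0214) and -0.40 ± 0.08 in the average (0.0103), where ± is an approximate SE. Below, an unnamed value in parentheses after a difference is the adjusted p of the same edgeR test. The interaction was -0.02 ± 0.15 (adjusted p 0.955). Only 0.62% of its 31-base words occur in another gene. The call at 1 month was lost without WT at 1 month replicate 3 (adjusted p 0.0604), and that at 6 months without WT at 6 months replicate 1 (0.165) or 2 (0.0559) or 5xFAD at 6 months replicate 1 (0.0501) or 2 (0.0562), or without the 3 libraries with the most ribosomal RNA (0.173), WT at 1 month replicate 2 and 5xFAD at 6 months replicates 1 and 2, which leaves 1 library in the latter group. The averaged call held with every library left out. Its leading transcript, Odf2-204, held 67.8% of the gene's counts and averaged 74.1 CPM in WT against 34.4 CPM in 5xFAD at 1 month, but 48.2 against 50.9 CPM at 6 months, so the shared gene-level difference was not carried by that transcript alone.

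The other 3 genes called at both ages, Rps23, Pgam1-ps2 and Gm49369, share long stretches of sequence with other genes. Rps23 (chr13:90922958-90924950) encodes a protein of the small ribosomal subunit, and read 93.4, 94.1 and 83.1 CPM in the WT libraries against 62.7, 58.2 and 61.4 CPM in 5xFAD at 1 month, and 129, 125 and 164 against 83.9, 105 and 107 CPM at 6 months. Every WT library lay above the 5xFAD libraries of its age (log2 difference -0.57 ± 0.12, adjusted p 0.00145, and -0.50 ± 0.12, 0.0109). Pgam1-ps2 (chr7:27469771-27470535, minus strand) is a processed pseudogene of the glycolytic enzyme phosphoglycerate mutase 1. It read 6.05, 8.81 and 13.5 CPM in the WT libraries against 61.1, 34.9 and 34.99 CPM in 5xFAD at 1 month, and 2.16, 1.07 and 1.56 against 8.53, 19 and 4.97 CPM at 6 months, higher in 5xFAD, with log2 differences of 2.21 ± 0.47 (0.00732) and 2.78 ± 0.54 (0.0136). Gm49369 (chr7:142371096-142382667), a predicted gene of which 76.3% of the 31-base words occur in the cathepsin D gene Ctsd, had no count in any 5xFAD library. The WT libraries held 0.756, 2.97 and 2.40 CPM at 1 month and 6.20, 6.37 and 0 CPM at 6 months, which was at least 22.5-fold higher than the level of 3 counts over the 5xFAD libraries at 1 month and at least 53.97-fold at 6 months. A WT library at 6 months also held no count, so the genotypes were not separated there. Predicted genes and pseudogenes here and below, and members outside the rule for named genes, were chosen after their values were seen.

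Sequence shared with another gene was frequent in the whole set. Of the 61 genes, 13 (21.3%) had more than 50% of their 31-base words in another gene, against 813 (5.2%) of all tested genes, and 7 of the 14 genes with an averaged difference of at least 2-fold were of that kind. The stretches below were read from the GENCODE M21 transcripts (GRCm38), 60 coding bases each, 5′ to 3′, and are shown because reads from them fit more than 1 gene. Capitals mark bases that differ between the genes listed, and where there are none the genes are identical over the stretch.
Pgam1-ps2 (chr7:27470476-27470535, minus strand) and Pgam1 (chr19:41912048-41912107, plus strand): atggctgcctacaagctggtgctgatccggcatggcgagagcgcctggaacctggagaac
Rps23 (chr13:90923587-90923646, plus strand) and Rps23-ps1 (chr3:37714744-37714803, plus strand): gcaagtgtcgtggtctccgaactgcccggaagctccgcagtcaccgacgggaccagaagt
Atp5g2 (chr15:102665796-102665855, minus strand) and Gm10175 (chr7:23947134-23947193, minus strand): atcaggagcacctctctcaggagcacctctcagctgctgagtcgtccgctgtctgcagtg
Dynlt1b (chr17:6435008-6435067, plus strand), and the same in Dynlt1a, Dynlt1c and Dynlt1f: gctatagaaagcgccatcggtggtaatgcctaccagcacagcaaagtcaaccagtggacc
Srp54b (chr12:55177547-55177606, plus strand), and the same in Srp54a: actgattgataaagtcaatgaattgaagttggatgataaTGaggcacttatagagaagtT
Srp54c (chr12:55252791-55252850, plus strand): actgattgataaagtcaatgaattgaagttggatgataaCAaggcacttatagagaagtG
Over whole coding sequences, Pgam1-ps2 matched Pgam1 at all 765 bases and Srp54b matched Srp54a at all 1515, while Srp54c differed from Srp54b at 6. The coding sequence of Atp5g2 was found in Gm10175 with no difference in 441 bases, and Dynlt1b differed from each of Dynlt1a, Dynlt1c and Dynlt1f at 1 base of 342.

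The 4 groups divided counts between a gene and its copies in different proportions. Rps23 held 84.01 to 86.9% of the counts of itself and its copies in WT at 6 months, against 41.1 to 62.7% in the other 9 libraries. Atp5g2, which encodes a subunit of the membrane ring of ATP synthase, held 83.2 to 86.3% in WT at 6 months and 14.1 to 30.8% elsewhere. Srp54b, 1 of 3 near-identical genes for the signal recognition particle protein SRP54, held 2.11 to 4.04% in WT at 6 months and 16.4 to 27.2% elsewhere. The pseudogene Pgam1-ps2 held 0.18 to 0.39% in WT at 6 months and 4.39 to 8.23% in 5xFAD at 1 month. For these genes the WT libraries at 6 months, or those of 5xFAD at 1 month, stood apart from libraries of both genotypes.

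**Figure D3:**
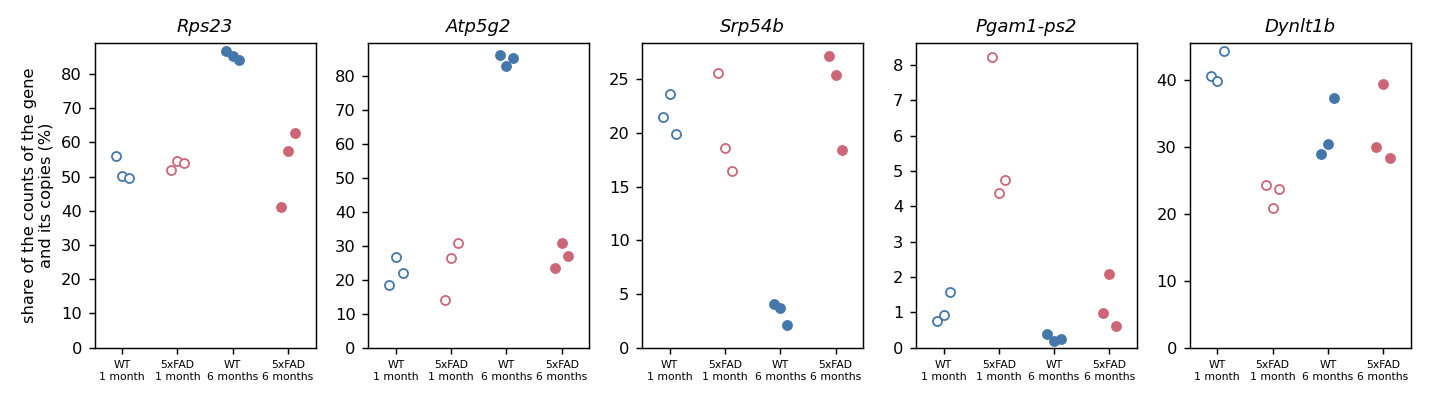
Share of the summed counts of a gene and its near-identical copies that was assigned to the gene (y axis, %) in each library, for Rps23, Atp5g2, Srp54b, Pgam1-ps2 and Dynlt1b, with WT in blue and 5xFAD in red, 1 month open and 6 months filled. In the first 3 panels the WT libraries at 6 months stand apart from the other 9, and in the Dynlt1b panel the 5xFAD libraries at 1 month are the lowest.

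Summing each such gene with the genes that hold at least 25% of its 31-base words, an alternative added after the data were seen, gave 16 families for 17 of the 61 genes, and 4 families were called in the average. Of the 16 families, 12 had opposite signs at the 2 ages and 0 were called at both ages in the same direction (edgeR, adjusted p below 0.05). Rps23 with its pseudogenes was lower at 1 month (-0.61 ± 0.11, adjusted p 4.09e-04) and not called at 6 months (0.18 ± 0.11, 0.369). Pgam1 with its pseudogenes was -0.20 ± 0.09 at 1 month (0.102) and higher at 6 months (0.54 ± 0.09, 6.05e-04). Gm49369 with Ctsd came to -0.03 ± 0.07 in the average (0.901), the Srp54 genes to 0.10 ± 0.06 (0.53), and Atp5g2 with its copies to -0.19 ± 0.08 (0.325). Odf2 was then the only gene called at both ages in the same direction.

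The families that remained called were Dynlt1, Tmem181, Gm29216 with the mitochondrial gene mt-Co1, and Tomm6. Of these, the family of Gm29216 had opposite signs at the ages (-0.81 ± 0.09, 4.45e-06, and 0.11 ± 0.09, 0.557), and Tomm6 with its copy had -0.72 ± 0.14 (7.61e-04) and -0.21 ± 0.14 (0.419). Dynlt1 genes encode a light chain of the motor protein dynein, and 4 near-identical copies lie on proximal chromosome 17, with Dynlt1b at chr17:6430112-6436296. Dynlt1b alone read 32.5, 39.4 and 30.1 CPM in the WT libraries against 14.3, 11.96 and 13.01 CPM in 5xFAD at 1 month, and 23.5, 22.9 and 27.7 against 18.5, 24.7 and 15.6 CPM at 6 months. Summed over the family the values were 80.2, 98.7 and 67.96 CPM in the WT libraries against 59.1, 57.6 and 54.9 CPM in 5xFAD at 1 month, and 81.4, 75.6 and 74.4 against 61.6, 62.5 and 55.1 CPM at 6 months, and at each age all WT libraries lay above all 5xFAD libraries. The family differed by -0.45 ± 0.09 in the average (adjusted p 0.0149), with -0.52 ± 0.12 at 1 month (0.00342), -0.37 ± 0.12 at 6 months (0.0679) and an interaction of 0.16 ± 0.17 (0.557). The single gene Dynlt1b had an interaction of 1.04 ± 0.26 (0.00475). Tmem181b-ps (chr17:6438524-6467022), a pseudogene of a transmembrane protein gene, starts 8.41 kb from Dynlt1b. Its family differed by -0.69 ± 0.10 at 1 month (4.34e-05) and by -0.09 ± 0.10 at 6 months (0.649).

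Of the collagen VI genes tested, Col6a1, Col6a2 and Col6a6 were lower in 5xFAD in the average and, tested by age, at 1 month only, and the others were not called in the average. Collagen VI is a beaded-filament collagen of the pericellular matrix, and Col6a1 and Col6a2 encode 2 of its chains and lie next to each other on chromosome 10. Col6a1 (chr10:76708792-76726168, minus strand) read 194, 200.3 and 205 CPM in the WT libraries against 72.5, 74.7 and 83.2 CPM in 5xFAD at 1 month, and 148, 142 and 129 against 124, 118 and 125 CPM at 6 months. All 6 WT libraries lay above all 6 of 5xFAD, and within WT the older retinas read less than the younger ones. The averaged difference was -0.78 ± 0.07 (adjusted p 3.69e-07), made up of -1.38 ± 0.09 at 1 month and -0.19 ± 0.09 at 6 months, where it was not called (0.252), with an interaction of 1.19 ± 0.13 (1.14e-06). Col6a2 (chr10:76595762-76623630, minus strand) read 22.9, 30.01 and 25.7 CPM in the WT libraries against 9.37, 17.7 and 8.97 CPM in 5xFAD at 1 month, and 19.9, 19.8 and 19.3 against 14.4, 17.7 and 15.1 CPM at 6 months. Its averaged difference was -0.72 ± 0.15 (adjusted p 0.027), and the call was lost when any of 5 single libraries was left out, with adjusted p from 0.0531 to 0.102. Col6a6 (chr9:105687809-105828160), which encodes another chain of this collagen, read 7.48, 8.45 and 8.39 CPM in the WT libraries against 2.34, 1.29 and 2.24 CPM in 5xFAD at 1 month, and 7.75, 6.01 and 4.79 against 3.16, 4.29 and 4.61 CPM at 6 months (-1.33 ± 0.24, 0.00921). Genotypes were separated over all 12 libraries for these 3 genes. Of the uncalled genes of this collagen, Col6a4 differed by -0.61 ± 0.16 (0.0897), Col6a5 by -0.57 ± 0.63 (0.788) and Col6a3 by -0.99 ± 0.77 (0.661), and Col6a3 had opposite signs at 1 month (-3.12 ± 1.19) and 6 months (1.13 ± 1.01). The interaction was called for Col6a6 (0.0338) and not for Col6a2 (0.0563).

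The collagen VI pair is shown by the 250 bases before the RefSeq start, because these neighbouring genes moved together, and for Col6a1 only the 126 of these bases that lie outside the gene's GENCODE exon are printed. Sequences are from RefSeq (GRCm38.p6), minus strand, 5′ to 3′, and capitals mark the GC box GGGCGG or its reverse complement.
Col6a1 (chr10:76726169-76726294): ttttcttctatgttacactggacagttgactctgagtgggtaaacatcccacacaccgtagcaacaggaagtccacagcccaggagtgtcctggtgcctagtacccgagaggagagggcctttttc
Col6a2, more distal start (chr10:76623631-76623880): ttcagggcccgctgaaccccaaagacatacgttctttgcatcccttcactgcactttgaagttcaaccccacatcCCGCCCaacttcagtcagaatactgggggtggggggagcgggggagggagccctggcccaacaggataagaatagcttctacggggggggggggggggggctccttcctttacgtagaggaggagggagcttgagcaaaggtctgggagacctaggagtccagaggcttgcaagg
The TATA box TATAAA, the CCAAT box CCAAT and the GC box GGGCGG were searched on both strands of the 250 bases. Col6a1 held 0 matches, and the printed Col6a2 window held 1 GC box and neither of the others, while the 250 bases before the gene's other RefSeq start held 3 GC boxes, some of them overlapping, and neither of the others. Among 32851 RefSeq promoter windows of this length, 12.4% held TATAAA, 33.9% CCAAT and 32.7% GGGCGG. A match describes letters only, and the match in the printed windows overlapped no other.

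Over all collagen chains the calls were mainly at 1 month. Of 38 tested genes for collagen chains, a list chosen after values were seen, 7 were lower and 0 higher in the average (0.262% and 0.326% of all tested genes), 3 of the 7 being the collagen VI genes above, with a median of -0.33 against -0.01 over all tested genes. At 1 month 20 were lower and 0 higher (8.85% and 10.6% of all genes; median -0.75, against -0.05 over all genes), and at 6 months 0 were called in either direction (median 0.01; 19 of 38 had a difference below 0 at both ages). Col27a1, a fibrillar collagen gene, read 69.7, 72.96 and 79.96 CPM in the WT libraries against 27.7, 25.3 and 30.3 CPM in 5xFAD at 1 month, and 84.3, 73.1 and 62.8 against 77.4, 88.2 and 52.5 CPM at 6 months. It fell by 1.42 on the log2 scale at 1 month and differed by -0.02 ± 0.15 at 6 months, so its place in the set rests on 1 age. Col23a1, which encodes a transmembrane collagen, had -0.56 ± 0.11 at 1 month and -0.09 ± 0.11 at 6 months. Col9a1 and Col11a1 were called in the average but had opposite signs. The 14 markers of fibroblasts and sclera, which include Col6a1 and Col6a2, summed to 252 to 261 CPM in WT and 105 to 121 CPM in 5xFAD at 1 month. Without those 2 genes the sums were 25.05 to 31.5 and 24.3 to 29.6 CPM at 1 month, and 20.5 to 47.4 and 15.3 to 24.6 CPM at 6 months. The fibroblast marker Lum was at 0 in 3 of the 4 groups. In bulk tissue fewer cells of a type and less RNA per cell cannot be told apart.

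**Figure D4:**
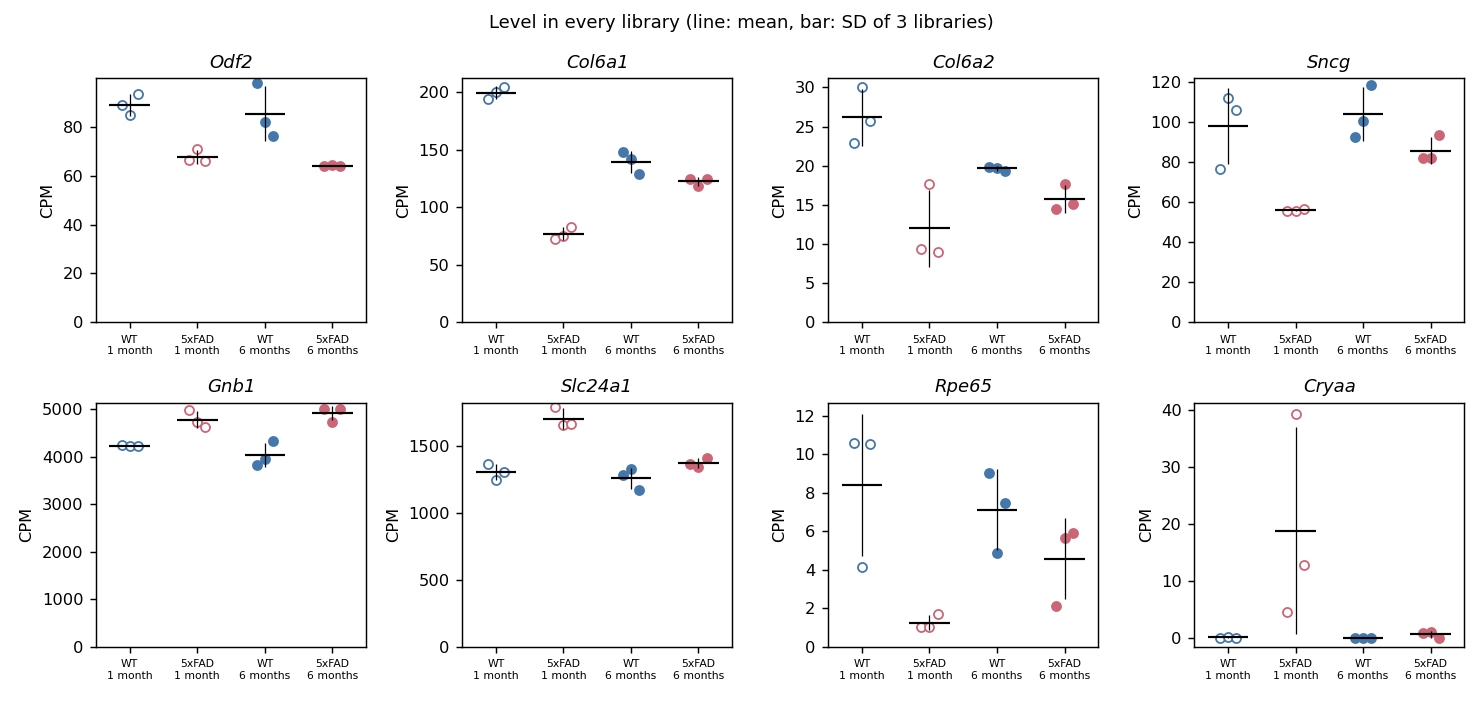
CPM in each library (y axis, linear) for Odf2, Col6a1, Col6a2, Sncg, Gnb1, Slc24a1, Rpe65 and Cryaa, with WT in blue and 5xFAD in red, 1 month open and 6 months filled, lines at group means and bars of 1 SD over 3 libraries. Odf2 is lower in 5xFAD by a like amount at both ages, Col6a1 and Col6a2 are lower mostly at 1 month, and all 5xFAD points of Gnb1 and Slc24a1 lie above the WT points of their age, though Gnb1 was not called at 1 month (adjusted p 0.0985) nor Slc24a1 at 6 months (0.396).

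Of 25 tested rod genes, 4 were higher in 5xFAD and 0 lower in the average (0.326% and 0.262% of all tested genes). At 1 month 8 were higher and 4 lower (10.6% and 8.85% of all genes), and at 6 months 7 were higher and 1 lower (2.45% and 3.86%). In all, 11 had the same direction at both ages (32.2% of all genes). Gnb1 (chr4:155491361-155559269), the beta subunit of the rod G protein transducin, read 4236, 4227 and 4216 CPM in the WT libraries against 4973, 4727 and 4628 CPM in 5xFAD at 1 month, and 3819.8, 3959 and 4325 against 5013, 4739 and 4997 CPM at 6 months. All 6 libraries of 5xFAD exceeded all 6 of WT (0.23 ± 0.05, 0.0397), yet the call was lost in 10 of the 12 fits that left out 1 library, with adjusted p up to 0.147. Slc24a1, the rod sodium-calcium-potassium exchanger, differed by 0.38 ± 0.08 at 1 month and 0.12 ± 0.08 at 6 months (0.0307 in the average). Its averaged call was lost in 8 of the 12 fits. The 4 included Gnb1, Slc24a1 and the phosphodiesterase subunit gene Pde6a, which had opposite signs (0.54 and -0.05). The list's median was 0.12, against -0.01 for all genes. The rod list, its called genes included, summed to 78300 to 80970 CPM in WT and 83610 to 88670 CPM in 5xFAD at 1 month, and to 72310 to 77410 and 84850 to 88040 CPM at 6 months. The genotypes did not overlap at either age in this sum. Nothing is read from that separation, because genes chosen by the same values hold a large part of the sum. No sum without them was made. By unadjusted p below 0.05, 14 of the 25 rod genes differed in the average (12.2% of all genes did). The DESeq2 Wald test called 11 of the 25, and over all 15644 tested genes it called 199 higher and 99 lower.

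Neuronal genes in the set went both ways. Sncg (chr14:34370274-34374789), gamma-synuclein, is a marker of ganglion cells and read 76.6, 112 and 106 CPM in the WT libraries against 55.8, 55.6 and 56.6 CPM in 5xFAD at 1 month, and 92.7, 101 and 119 against 81.96, 81.99 and 93.4 CPM at 6 months. It differed by -0.81 ± 0.13 at 1 month (adjusted p 1.14e-04) and -0.28 ± 0.13 at 6 months (0.201), and the averaged call (-0.54 ± 0.09, 0.00315) held with every library left out, while the interaction was called (0.53 ± 0.18, 0.0316). The genotypes overlapped at 6 months. It was the only one of 19 ganglion cell genes called in the average, where 0.588% of all tested genes were called. At 1 month 4 of the list were called higher and 3 lower (10.6% and 8.85% of all genes), and at 6 months 0 higher and 1 lower (2.45% and 3.86%). The sum of that list overlapped between genotypes at both ages (1358 to 1456 CPM in WT and 1351 to 1443 CPM in 5xFAD at 1 month, 1260 to 1424 and 1282 to 1474 CPM at 6 months). Uchl1, a ubiquitin hydrolase of neurons, and Tagln3, a neuronal actin-binding protein, were lower at 1 month (-0.65 ± 0.11 and -0.73 ± 0.11) and near 0 at 6 months (-0.06 ± 0.11 and -0.06 ± 0.11). Sh3gl2, which encodes the endocytic protein endophilin A1, read 251, 229 and 247 CPM in the WT libraries against 305, 307 and 275 CPM in 5xFAD at 1 month, and 195, 199 and 194 against 239.6, 228 and 237 CPM at 6 months. Its difference was 0.29 ± 0.08 at 1 month and 0.26 ± 0.08 at 6 months (0.0288 in the average), with no overlap at either age. At 6 months alone it was not called (0.0633), and the averaged call was lost in 6 of the 12 fits that left out 1 library. The adhesion gene Cadm2 was higher at 1 month (0.59 ± 0.09) and differed by 0.01 ± 0.09 at 6 months.

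Some members are markers of tissue around the neural retina. Rpe65, the isomerohydrolase of the pigment epithelium, differed by -1.69 ± 0.31 in the average (adjusted p 0.00832), and 5xFAD and WT overlapped at 6 months (9.03, 4.89 and 7.48 CPM in WT and 2.13, 5.66 and 5.89 CPM in 5xFAD). The other 16 pigment epithelium markers summed to 138 to 218 CPM in WT and 79.3 to 89.7 CPM in 5xFAD at 1 month, and to 109 to 163 and 109 to 165 CPM at 6 months. Cryaa, the lens alpha-crystallin gene, read 0.0840, 0.270 and 0 CPM in the WT libraries against 4.51, 39.3 and 12.7 CPM in 5xFAD at 1 month, and 0.0674, 0 and 0 against 0.853, 1.05 and 0 CPM at 6 months. The 5xFAD libraries at 1 month were all above the other 9 and differed widely among themselves. The other 16 lens markers summed to 19.9 to 73.8 CPM in that group and to 23.8 to 32.9 CPM in the rest. That group thus held both the lowest and the highest of these sums. Of the 17 lens genes, 11 were at 0 in 5xFAD and 9 in WT at 6 months, and 2 in 5xFAD and 7 in WT at 1 month. The part of these tissues in the results was not tested. Dbi, an acyl-CoA-binding protein enriched in glia, differed by -0.96 ± 0.16 at 1 month and -0.12 ± 0.15 at 6 months.

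Ribosomal and mitochondrial genes formed a group of lower members with unequal support. Rpl5 (chr5:107900502-107909005), of the large ribosomal subunit, read 88.3, 88.8 and 74.4 CPM in the WT libraries against 61.8, 59.5 and 51.1 CPM in 5xFAD at 1 month, and 106, 100.2 and 128 against 92.4, 86.03 and 90.2 CPM at 6 months and differed by -0.43 ± 0.08 in the average (0.0103). Summed with its copy Gm15500 it differed by -0.44 ± 0.11 at 1 month and 0.55 ± 0.11 at 6 months, called in opposite directions (0.0058 and 0.00339), and the average reversed its sign (0.06). Rpl31 was lower at 1 month (-1.04 ± 0.15) and not called at 6 months (-0.11 ± 0.14). On a list of 55 tested ribosomal protein genes, which does not include Rpl31, 0 were higher and 3 lower in the average (median -0.09), where 0.262% of all tested genes were lower. The 3 were Rps23, Rpl5 and Rpl11, and Rpl11 had opposite signs (-0.94 ± 0.11 at 1 month and 0.12 ± 0.11 at 6 months). At 1 month 54 of the list were lower (8.85% of all genes), and at 6 months 29 were higher (2.45%) and 1, Rps23, lower (3.86%). On a list of 46 tested genes of the respiratory chain only Cox7c was called in the average (-0.40 ± 0.08), where 0.588% of all tested genes were called. Cox7c had -0.77 ± 0.12 at 1 month and -0.03 ± 0.12 at 6 months. By age this list too moved in opposite directions. At 1 month 0 of it were higher and 37 lower (10.6% and 8.85% of all genes), with a median of -0.53. At 6 months 11 were higher and 0 lower (2.45% and 3.86%), with a median of 0.29. That list is not complete, and the called genes Ndufa12 and Atp5g2 are not on it. Ndufa12, an accessory subunit of complex I, read 39.7, 56.4 and 48.03 CPM in the WT libraries against 30.99, 40.5 and 31.1 CPM in 5xFAD at 1 month, and 53.4, 54.8 and 69.6 against 40.7, 46.5 and 43.8 CPM at 6 months. Its difference was -0.49 ± 0.15 at 1 month and -0.44 ± 0.15 at 6 months (0.037 in the average). At 6 months alone it was not called (0.0719), and the averaged call was lost in 6 of the 12 fits that left out 1 library. Cox20, an assembly factor of cytochrome oxidase, differed by -0.58 ± 0.13, and Tomm6, of the outer membrane translocase, by -0.45 ± 0.10. Neither was called at 6 months (0.428 and 0.528), and their averaged calls were lost in 10 and 6 of those 12 fits. Mrpl23, of the mitochondrial ribosome, was at 17.2, 15.5 and 16.8 CPM in WT at 6 months, against 2.05, 5.34 and 4.90 CPM in 5xFAD, and overlapped between genotypes at 1 month.

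Members that act in transcription or ubiquitin transfer differed in how far the ages matched. Pcgf2, a Polycomb group RING protein, read 33.02, 35.9 and 33.6 CPM in the WT libraries against 25.2, 19.4 and 26.2 CPM in 5xFAD at 1 month, and 36.6, 38.7 and 40.5 against 17.8, 29.03 and 31.4 CPM at 6 months. All WT libraries exceeded all 5xFAD libraries, with -0.53 ± 0.18 at 1 month and -0.56 ± 0.17 at 6 months (0.0397 in the average). The ubiquitin ligase gene Dtx3 was likewise separated over all 12 libraries (-0.34 ± 0.10 and -0.31 ± 0.10, 0.0397). Mbd6, a methyl-CpG-binding domain protein, had -0.33 ± 0.12 and -0.40 ± 0.12, and Hcfc1r1, a regulator of host cell factor, -0.48 ± 0.16 and -0.43 ± 0.15. The ubiquitin ligase gene Rnf139 differed by 0.59 ± 0.13 and 0.24 ± 0.13, and the transcription factor gene Etv3 by 0.81 ± 0.15 and 0.09 ± 0.15. With 1 library left out, the averaged call was lost in 10 of 12 fits for Pcgf2 (adjusted p up to 0.149), 11 for Ccser1 (0.177), 10 for Rnf139 (0.119), 9 for Hcfc1r1 (0.153), 8 for Mbd6 (0.146) and 6 for Dtx3 (0.15). Nt5e, the ectonucleotidase that makes adenosine, read 167, 148 and 153 CPM in the WT libraries against 206, 214 and 189 CPM in 5xFAD at 1 month, and 157, 153 and 154 against 179.7, 169 and 191 CPM at 6 months, with an averaged difference of 0.30 ± 0.06 (0.0257). At 6 months alone Nt5e was not called (0.152), and its averaged call was lost in 6 of the 12 fits. Mindy4b-ps, annotated as protein coding despite its name, read 6.39, 5.30 and 5.91 CPM in the WT libraries against 1.74, 1.01 and 2.06 CPM in 5xFAD at 1 month, and 4.78, 5.71 and 4.31 against 1.36, 1.46 and 3.34 CPM at 6 months, with an averaged difference of -1.56 ± 0.31 (0.0162), and its leading transcript, with 93.7% of its counts, is of the retained-intron class. Ccser1, the 10th gene with full separation, differed by 0.56 ± 0.13 (0.0485).

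The other members are given by their differences. Lower in 5xFAD in the average were the snoRNA host gene Snhg11 (-0.33 ± 0.07), the semaphorin gene Sema4g (-0.41 ± 0.08), the myosin light chain gene Myl6 (-0.32 ± 0.07) and the endosomal adaptor gene Appl2 (-0.28 ± 0.06). The zinc-finger gene Zfp935 was at 0 in 5xFAD at 1 month, where WT was at least 47.02-fold higher than the level of 3 counts over that group, and 2210418O10Rik differed by -2.62 ± 0.28. Each shares 100% of its 31-base words with other genes, and with those summed neither was called (0.784 and 0.881). Higher were the splicing factor gene Mbnl2 (0.28 ± 0.06), Purb (0.30 ± 0.07), the sialyltransferase gene St3gal1 (0.35 ± 0.07) and the matrix gene Edil3 (0.39 ± 0.08). Kbtbd7 (0.39 ± 0.09), the ETS factor gene Etv3 (0.45 ± 0.10) and Prtg (1.00 ± 0.24) were higher too. The pseudogenes Gm13509, AC111023.1, Gm4735 and Gm15387 differed at 1 month by 0.07 ± 0.14, 1.35 ± 0.91, 0.00 ± 0.20 and 0.31 ± 0.30, and at 6 months by 0.95 ± 0.14, 4.87 ± 1.15, 1.29 ± 0.20 and 1.93 ± 0.31, and none was called in the average when summed with the genes whose sequence it shares. Rbpj-ps3 was at 0 in all 6 WT libraries and at 1.48, 3.96 and 1.08 CPM in 5xFAD at 1 month, at least 24.8-fold higher than 3 counts over the WT libraries, and with its parent Rbpj differed by 0.03 ± 0.10 (0.947). Members differed in length: the median was 1631 nt for the lower and 3590 nt for the higher genes, against 2743 nt for all tested genes, beside the group differences in transcript length given above.

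In lists relevant to an Alzheimer model no gene was called in the average, where 0.588% of all tested genes were, so nothing is read from these counts. None of 21 microglial, 24 MHC and interferon, 17 glial reactivity, 36 synaptic or 18 heat shock genes, nor of 27 genes of APP processing and Alzheimer disease, was called by edgeR in the average. An unadjusted p below 0.05 was found for 1 microglial, 3 MHC and interferon, 3 glial reactivity, 6 synaptic, 2 heat shock and 5 Alzheimer disease genes, against 1910 (12.2%) of all genes. By age, 13 synaptic, 7 Alzheimer disease, 4 heat shock, 1 glial reactivity and 1 MHC and interferon genes were called higher at 1 month (10.6% of all genes). Of the glial reactivity genes 2 were lower there (8.85%). At 6 months 10 synaptic, 4 heat shock, 1 Alzheimer disease and 1 glial reactivity genes were lower (3.86%) and 0 higher (2.45%). No microglial gene was called at either age. The DESeq2 Wald test called Apoe, the apolipoprotein of glia, which is on the microglial and the Alzheimer lists (-0.34 ± 0.10 by edgeR, 0.162), Sorl1, a sorting receptor of APP (0.26 ± 0.08, 0.145), and the metallothionein gene Mt1 of the glial reactivity list (-0.51 ± 0.14, 0.102), and 0 genes of the other lists named here. Over all tested genes that test called 199 higher and 99 lower. In mouse App the difference was 0.31 ± 0.10 at 1 month and -0.13 ± 0.10 at 6 months (0.09 ± 0.07 in the average, adjusted p 0.666), and for Thy1, whose promoter drives the transgenes, 0.08 ± 0.06 (0.682).

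The 61 genes were spread over 17 of the 19 autosomes. Chromosome 10 held 7 members among 769 tested genes (0.91%), all lower in 5xFAD, chromosome 13 held 5 of 615 (0.81%) and chromosome 17 held 5 of 774 (0.65%), against 0.39% over all autosomes. Chromosome 6 held 3, all higher, and chromosomes 8 and 18 held 0 members, of 864 and 465 tested genes. The same genes chose these shares, so they are a description with no test. In 250 windows of 10 Mb with at least 10 tested genes, 55 held a member, 5 held 2 or more, and the most was 3.

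**Figure D5:**
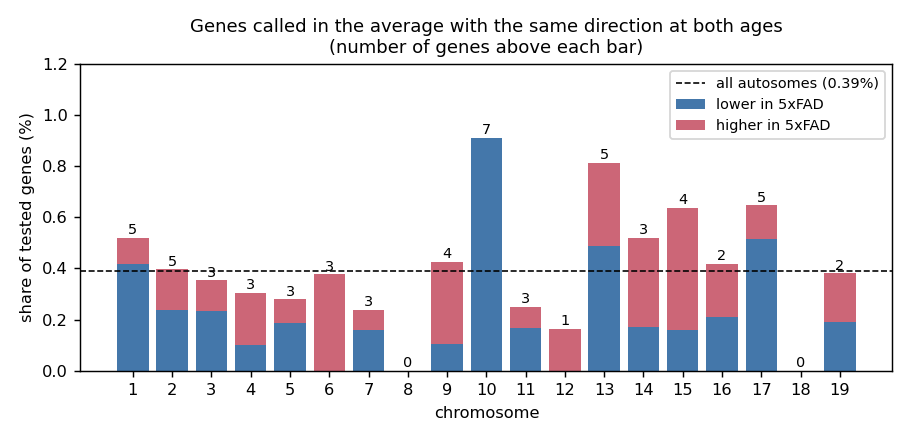
Share of tested genes (y axis, %) that were called in the average with the same direction at both ages, for each autosome (x axis), split into genes lower (blue) and higher (red) in 5xFAD, with the number of genes above each bar and the share over all autosomes (0.39%) as a dashed line. Chromosome 10 has the highest share, and all of its 7 genes are lower.

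Neighbours were few. None of the 4 genes called at both ages lay within 1 Mb of another. Among the 61 genes there were 4 pairs that started within 1 Mb of each other, and both genes of each pair had the same direction. Col6a2 and Col6a1 start 113 kb apart with no other tested gene between them. Dynlt1b and Tmem181b-ps likewise have none between them. Dtx3 and Mbd6 lie on chromosome 10 with starts 91.6 kb apart, and of the 4 other tested genes in that span 0 were called in the average. Gm49369 and Mrpl23 lie on distal chromosome 7 with starts 162 kb apart and 2 other tested genes in the span, of which 0 were called. The window with the most members, on distal chromosome 10, held 3 (Mbd6, Dtx3 and Myl6) among 104 tested genes. The 5xFAD transgenes are known as background to have been inserted on proximal chromosome 3. In the first 20 Mb of that chromosome 41 genes were tested and edgeR called 0 in the average, with a smallest adjusted p of 0.215. Since 0.588% of all tested genes were called, nothing is read from that 0. There 3 genes had an unadjusted p below 0.05 (12.2% of all genes did). The DESeq2 Wald test called 0 there, and 199 higher and 99 lower over all tested genes. By age, 12 of the 41 were called at 1 month and 5 at 6 months, against 19.5% and 6.31% of all tested genes.

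A list of genes known to differ between inbred strains had 14 tested entries. Of these, edgeR and the DESeq2 Wald test called 0 in the average (edgeR called 0.588% of all tested genes, so nothing is read from the 0). An unadjusted p below 0.05 was found for 4 (12.2% of all tested genes), and 6 had the same sign at both ages (32.2%). The median difference was 0.05, against -0.01 over all tested genes. At 1 month 4 were called higher and 0 lower (10.6% and 8.85% of all genes), and at 6 months 1 higher and 2 lower (2.45% and 3.86%). Nnt encodes the mitochondrial transhydrogenase, of which C57BL/6J mice carry a shortened allele. It has 2 entries in the annotation, which summed to 18.7, 19.5 and 20.4 CPM in WT and 16.1, 15.6 and 13.9 CPM in 5xFAD at 1 month, and to 18.5, 19.9 and 18.98 CPM in WT and 24.2, 18.2 and 16.97 CPM in 5xFAD at 6 months. The 5xFAD libraries lay below WT at 1 month, and the genotypes overlapped at 6 months. These are counts over the whole gene and do not show which exons were read. Pde6b, which carries the retinal degeneration allele in SJL mice, 1 of the strains from which hybrid 5xFAD colonies are bred, read between 2381 and 2896 CPM in all 12 libraries (0.07 ± 0.05, adjusted p 0.689).

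The remaining strain-variable genes are given by their values at each age or, for some, in the average. Wdfy1, which differs in level between strains, read 27.6, 30.4 and 46.1 CPM in the WT libraries against 62.8, 52.4 and 54.6 CPM in 5xFAD at 1 month, and 48.2, 48.2 and 26.8 against 25.2, 27.8 and 23.7 CPM at 6 months. It was higher in 5xFAD at 1 month (0.70 ± 0.20) and lower at 6 months (-0.68 ± 0.20). Entpd4 and Entpd4b, a duplicated pair, summed to 123 ± 8.74 CPM in WT and 155 ± 11.5 CPM in 5xFAD at 1 month, and to 128 ± 11.5 and 132 ± 19.7 CPM at 6 months (SD, n = 3). Crb1, in which C57BL/6N mice carry the rd8 allele, had -0.16 ± 0.16 at 1 month and 0.77 ± 0.16 at 6 months. Cyfip2, another gene with an allele of C57BL/6N, was called in opposite directions (0.46 ± 0.10 and -0.39 ± 0.10). Glo1, which is duplicated in some strains, had 251, 242 and 238 CPM in WT at 1 month, against 220.0, 226 and 217 CPM in 5xFAD (0.01 ± 0.06 in the average). Its difference was -0.14 ± 0.09 at 1 month (0.281) and 0.16 ± 0.09 at 6 months (0.309). Ahr (0.22 ± 0.08), Alad (-0.05 ± 0.16), Ide (0.26 ± 0.19) and Dysf (-0.03 ± 0.60) were not called in the average. By age, Ahr was higher in 5xFAD at 1 month (0.38 ± 0.12, 0.0218) and not called at 6 months (0.07 ± 0.11, 0.805). Alad, Ide and Dysf were called at neither age. The genes H2-Q5, Mmrn1, H2-Ea-ps, Tyr, H2-Ea, Oca2 and Mx1 had too few counts to test. Expression of these genes does not give a genotype at their variants, and sequence variants were not analysed here.

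Which members held their call depended on the libraries. Of the 61, 8 were called under each of 22 alternatives (all but a 1.5-fold minimum and the summing of copies), among them Atp5g2, Dynlt1b, Col6a1, Sncg, Rps23, Rpl5 and Odf2, and 4 of these 8 are in families of near-identical genes. With a 1.5-fold minimum (glmTreat) 2 members, 2210418O10Rik and Srp54b, remained called, and both lost the call when summed with their copies. Leaving out 1 library gave between 22 and 87 genes called in the average with the same direction, the lowest without 5xFAD at 1 month replicate 1 and the highest without 5xFAD at 6 months replicate 3. The count was 23 and 36 without 5xFAD at 1 month replicates 2 and 3, 27 without WT at 1 month replicate 2, and 38 and 35 without WT at 6 months replicates 1 and 2. It was 120 when the 3 libraries with the most ribosomal RNA were left out, of which 32 were among the 61.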

How the data were processed

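RNA of the whole retina was sequenced from poly(A)-selected libraries made with a kit that does not mark strand (TruSeq RNA v2), per the labels' protocols. Per the submitters' processing notes, the build was GRCm38.p6, and the tools listed are RSEM 1.3.3, STAR 2.7.1a, DESeq2 1.32.0 and Trim Galore 0.6.6. The gene table deposited by the authors holds expected counts, of which 3.73% are fractional, per the file headers and values. RSEM divides reads that match several genes by estimated proportions, which affects near-identical copies.

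Expected counts were rounded. Genes were matched to GENCODE M21 (55227 of 55487). Genes with low counts were filtered by group (filterByExpr), libraries were scaled by TMM, and 4 groups were fitted with edgeR 4.0.16 (quasi-likelihood, robust, 8 residual degrees of freedom, R 4.3.3, limma 3.58.1). P-values were adjusted over all tested genes by Benjamini-Hochberg. CPM of genes used effective library sizes and CPM of summed marker lists used totals. An SE is the absolute log2 difference divided by the square root of F. Sequence sharing was counted in 31-base words of the transcripts.

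Replicate numbers did not pair the samples (correlations of deviations -0.085 to 0.062), so no block entered the test. Named genes were the largest changes among genes called at both ages with non-overlapping genotypes, up to 3 called members of each list, all tested strain-variable genes, App, Thy1, members of neighbouring runs and the 5 next averaged calls by p. Some members and listed genes are not reported here by name. The members and lists were chosen with earlier results of these data known. The alternatives were other scalings, filters and tests (DESeq2 1.42.0), a replicate block, a length and GC trend, and leaving out libraries or gene classes. Summing near-identical copies, counting calls in the average with the same direction, and runs among those genes were added after the data were seen. Floors cover counting error only, while an SE also includes the spread between libraries.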

Additional observations from a re-analysis of the deposited data

Results flagged for a closer look

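The genotype difference itself changed between ages for many of the genes described, by the interaction of genotype and age in edgeR (adjusted p below 0.05, called for 24.9% of all autosomal genes tested). The values below are the log2 difference at 6 months minus that at 1 month, so that in a gene lower in 5xFAD a positive value means a smaller difference at 6 months. No explanation was weighed.

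Matrix and pigment epithelium genes that were lower in 5xFAD at 1 month had positive interactions, with Rpe65 at 2.104, Col6a6 at 1.425, Col27a1 at 1.401, Col6a1 at 1.193 and Col23a1 at 0.4694. The same held for neuronal, glial and adaptor genes, with Dbi at 0.8362, Tagln3 at 0.6715, Uchl1 at 0.5893, Sncg at 0.5318, Appl2 at 0.5255, Sema4g at 0.51 and Myl6 at 0.4035. Ribosomal and mitochondrial genes had Rpl31 at 0.9248, Rpl11 at 1.063, Cox7c at 0.7477 and Tomm6 at 0.5741.

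Genes higher in 5xFAD at 1 month had negative interactions, with Etv3 at -0.7214, Pde6a at -0.5956, Cadm2 at -0.5744, Edil3 at -0.5392, Purb at -0.4987 and St3gal1 at -0.4771. Mrpl23, which differed mainly at 6 months, had -1.711.

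Genes with near-identical copies had some of the largest interactions, with 2210418O10Rik at 3.794, Srp54b at 2.742, Gm15387 at 1.619, Gm4735 at 1.289, Tmem181b-ps at 1.19, Dynlt1b at 1.038 and Gm13509 at 0.8828. With copies summed, the interaction of the 2210418O10Rik family turned to -1.30 (adjusted p 8.95e-06), and those of Srp54b (-0.19, 0.254), Dynlt1b (0.16, 0.557) and Tomm6 (0.52, 0.0542) were not called. It was 0.37 for the family of Gm15387, 0.52 for Gm4735, 0.59 for Tmem181b-ps and 0.35 for Gm13509, all called. Among strain-variable genes and App, the interaction was -1.388 for Wdfy1, 0.935 for Crb1, -0.8523 for Cyfip2, -0.7044 for Entpd4 and -0.4341 for App.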

How the results depend on the processing

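The counts of genes called depended on the processing, and the cause was not tested. Genes called in the average were 51 higher and 41 lower. They were 26 and 54 with library size alone, which turned the balance toward lower genes, 199 and 99 with the DESeq2 Wald test, 132 and 142 with a filter of 1 count in all, 126 and 67 with a length and GC trend removed, 83 and 72 when the 3 libraries with the most ribosomal RNA were left out, and 6 and 2 with a 1.5-fold minimum. Leaving out 1 library gave 16 to 53 higher and 19 to 68 lower. Those with the same direction at both ages (61) became 165, 162, 141, 120 and 2 under the Wald test, the 1-count filter, the trend, those 3 libraries left out and the 1.5-fold minimum, and 22 to 87 with 1 library left out.

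The replicate block, which rests on numbers that did not pair the samples, gave 25 higher in the average, 34 with the same direction and 2 higher at both ages. Genes called at both ages in the same direction were 1 higher and 3 lower. The higher count was 2 with DESeq2 size factors, with 1 CPM in 3 libraries and with pseudogenes and mitochondrial and ribosomal RNA genes left out, 3 with autosomal genes alone and with the 1-count filter, 7 with the Wald test, 13 with the trend, and 0 without the 3 libraries, with the 1.5-fold minimum and with summed copies. The lower count was 5 with library size alone, 6 with the Wald test, 15 with the 1-count filter, 8 with the trend, 7 without the 3 libraries, 0 with the 1.5-fold minimum and 1 with summed copies. Leaving out 1 library gave 0 to 5 higher and 1 to 14 lower. Of the 4 genes, 0 were among the 7 called without those 3 libraries, and 2 among the 21 with the trend removed.

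Genes called in opposite directions (631) became 141 without the 3 libraries and 6 with the 1.5-fold minimum, and 178 to 945 with 1 library left out. The interaction count (3897) became 2257 and 873, and 2793 to 4383. In each of these settings between 30.83 and 39.13% of genes had the same sign at both ages. Summing copies reversed Rpl5 (0.05794), Gm13509 (-0.04469) and Gm15387 (-0.08619). Over all single-gene values under alternatives, 1354 kept their direction and side of the threshold, 512 kept the direction and lost the call, 2 gained it and 3 reversed. Depth limits low genes such as Gm49369, Zfp935, Rbpj-ps3 and Cryaa, which rest on 0 or few counts in a group.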
